A study of Homo sapiens with 6 samples.

Results

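The genes described here are 33 homologous recombination and Fanconi repair genes, followed in CAL27 cells that overexpress the transcript CNTNAP2-203 and in control cells. They were found by symbol in the deposited table of raw counts, where all 33 were present among 60564 listed genes. All 33 also passed the filter on low counts that left 18786 genes for testing, so none was lost to low expression. CAL27 is an established line of human tongue squamous carcinoma cells. The first group, CNTNAP2-203 OE (overexpression), was infected with a lentivirus carrying CNTNAP2-203, a transcript of the gene CNTNAP2. The second, control, received a control vector, for which the descriptions of the samples name EGFP and the genotype label reads WT. Both groups were selected with 5 μg/ml puromycin for 2 weeks, and each is represented by 3 RNA-seq libraries. The labels do not state whether the infected lines are pools or clones, or whether libraries of a group stem from separate cultures. P-values thus measure the spread among 3 libraries a group, and that spread may be technical.

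Homologous recombination repairs a broken chromosome by copying the intact sister. The MRE11-RAD50-NBN complex and its helpers trim the broken ends to single strands, BRCA1, PALB2 and BRCA2 prepare these strands for exchange with the sister, and the BLM complex or structure-specific nucleases separate the joined molecules afterwards. The Fanconi anaemia pathway deals with crosslinks between DNA strands: its core complex attaches ubiquitin to the FANCD2-FANCI pair, which recruits nucleases and hands the break on to recombination. Several of these genes are transcribed mainly around S phase, and E2F factors are known regulators of some. The series asks how CNTNAP2-203 promotes growth of oral carcinoma cells, and its title names E2F1 activity.

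Of the 33 genes, 3 rose in CNTNAP2-203 OE and none fell, by edgeR's quasi-likelihood test with Benjamini-Hochberg adjustment over the whole table and a threshold of 0.05. They were BLM, the helicase that dissolves recombination junctions, EXO1, an exonuclease that resects DNA ends, and FANCG, a subunit of the Fanconi core complex. Across all tested genes 0.798% were called higher and 0.596% lower. A further 5 genes had an adjusted p between 0.05 and 0.1, namely BRCA1, FANCI, FANCD2, RAD51AP1 and EME1. At an unadjusted p under 0.05, 21 were higher and 0 lower, against 9.41% higher and 7.84% lower among all genes. DESeq2 called 13 of the 33 higher and 0 lower, against 4.26% and 2.85% of the 14951 genes to which it gave an adjusted p, and limma-trend on log2 FPKM called 2 higher and 0 lower, against 0.447% and 0.431%. In edgeR, 3 of the 33 were called with RLE scaling (0.735% of all genes), with scaling by totals (0.596%) and with no filter on low counts (0.603%), and 4 with a stricter filter (1.08%). Here and for the other fits, a share of all genes is over the genes with an adjusted p in that fit.

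The promoters of the genes are shown before the values because the title of the series names E2F1. RefSeq promoter windows of GRCh38.p14, from 250 bases before to 50 after a start site, were matched to 29 of the 33 genes. As E2F motifs, 4 words of 8 bases were searched on both strands, namely TTTCCCGC, TTTCGCGC, TTTGCCGC and TTTGGCGC. At least 1 was found in 6 of the 29 genes (20.7%), against 1090 of 27305 genes with such a window (3.99%). The comparison genes include genes not tested here and were not matched for expression or base composition. The matches are written below in the direction of the gene with 10 bases on either side, and the capitals mark the motif.
EXO1, chr1:241848198-241848225, plus strand: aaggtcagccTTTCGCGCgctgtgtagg
FANCA, chr16:89816802-89816829, minus strand: ctacaccgcgGCGGCAAAgccaaacgca
FANCC, chr9:95317864-95317891, minus strand: cggggcttccGCGCGAAAccgggaacac
FANCC, chr9:95317738-95317765, minus strand: tcgtcggaatTTTCCCGCgacgccgcgg
FANCD2, chr3:10026425-10026452, plus strand: gtcgggcctgGCGGGAAAgtcgaaaact
RMI1, chr9:83980763-83980790, plus strand: gcgcgagcgcGCGGCAAAtcgggcggga
XRCC2, chr7:152676103-152676130, minus strand: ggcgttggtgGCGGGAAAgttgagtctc

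On either strand, FANCD2, XRCC2 and FANCC share TTTCCCGC, EXO1 and FANCC share TTTCGCGC, and FANCA and RMI1 share TTTGCCGC. Distances are from the RefSeq start site of a window, which can differ from the GENCODE gene start given with a gene. The match begins 2 bases before it in FANCD2, 4 bases after in EXO1 and 21 after in XRCC2. It begins 32 bases before in RMI1, 46 and 172 before in FANCC, and 172 before in FANCA. Among genes in which every CNTNAP2-203 OE library lay above every control, 5 of 18 with a window held a match (27.8%), and among the genes with overlapping groups 1 of 11 did (9.09%), FANCC. With so few genes these shares are a description, and a match is neither a site of binding nor a cause. The CCAAT box, the letters CCAAT on either strand, was in 12 of the 29 genes (41.4%), against 39.7% of all. The core of the cell cycle genes homology region, TTTGAA or TTCGAA, was in 2 (6.9%), against 19.5%.

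For the genes that rose, the windows that held any of these letters are printed whole. The BLM window holds 3 CCAAT boxes in capitals, those spelled ATTGG being on the opposite strand, and none of the exact E2F words. Near matches to these words were not counted in any window. The EXO1 window holds 1 E2F motif in capitals. Neither the FANCG window nor a second EXO1 window held any searched motif.
BLM, chr15:90717096-90717395, plus strand: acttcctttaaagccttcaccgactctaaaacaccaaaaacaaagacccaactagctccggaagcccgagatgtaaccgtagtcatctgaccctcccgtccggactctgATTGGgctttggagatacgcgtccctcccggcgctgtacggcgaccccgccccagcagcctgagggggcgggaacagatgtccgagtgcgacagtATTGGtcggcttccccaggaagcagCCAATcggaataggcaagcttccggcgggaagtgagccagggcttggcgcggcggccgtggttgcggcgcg
EXO1, chr1:241847954-241848253, plus strand: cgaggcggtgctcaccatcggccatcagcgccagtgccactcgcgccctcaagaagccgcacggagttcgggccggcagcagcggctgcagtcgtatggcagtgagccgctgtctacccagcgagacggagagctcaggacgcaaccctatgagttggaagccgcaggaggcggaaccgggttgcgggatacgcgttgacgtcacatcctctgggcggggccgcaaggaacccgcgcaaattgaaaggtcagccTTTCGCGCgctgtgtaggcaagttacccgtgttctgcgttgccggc

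Sequencing depth was alike between the groups, with 36843190 to 42412703 counts in CNTNAP2-203 OE and 38769375 to 41754789 in control libraries. CNTNAP2 had 140022, 156055 and 119280 counts in CNTNAP2-203 OE and 0, 3 and 4 in control, as the labels say. All 9 squamous epithelial markers were expressed, with KRT5 at 916 to 1316 FPKM, and their summed level was 13999 to 17139 CPM in CNTNAP2-203 OE and 13909 to 15818 CPM in control. The sum hides differences of single markers. Of the 9, 2 were higher and 2 lower at an unadjusted edgeR p under 0.05, against 9.41% and 7.84% of all genes. KRT17 had 59101, 58835 and 64992 counts in CNTNAP2-203 OE and 95098, 87275 and 98835 in control. Of the markers of other cell types, 4 of 6 for fibroblasts, 3 of 6 for leukocytes and 2 of 5 for endothelium passed the filter. Their summed levels were 40.0 to 42.6 CPM in CNTNAP2-203 OE and 40.8 to 45.8 CPM in control for fibroblasts, 54.7 to 62.3 CPM in CNTNAP2-203 OE and 50.6 to 69.4 CPM in control for leukocytes, and 7.74 to 11.5 CPM in CNTNAP2-203 OE and 5.98 to 9.40 CPM in control for endothelium. KDR had 0 counts in every library, and COL3A1, PTPRC, LYZ and PECAM1 had 0 to 7. Others were expressed in both groups. Over the 6 libraries CD14 was at 10.7 to 15.8 FPKM, CD68 at 10.7 to 14.0 FPKM and LUM at 2.65 to 3.73 FPKM. COL1A1 was at 1.87 to 2.82 FPKM and CDH5 at 0.585 to 1.34 FPKM. The smallest library, CNTNAP2-203 OE replicate 3, stood apart in its long transcripts, as described with the genes it touches.

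**Figure D1:**
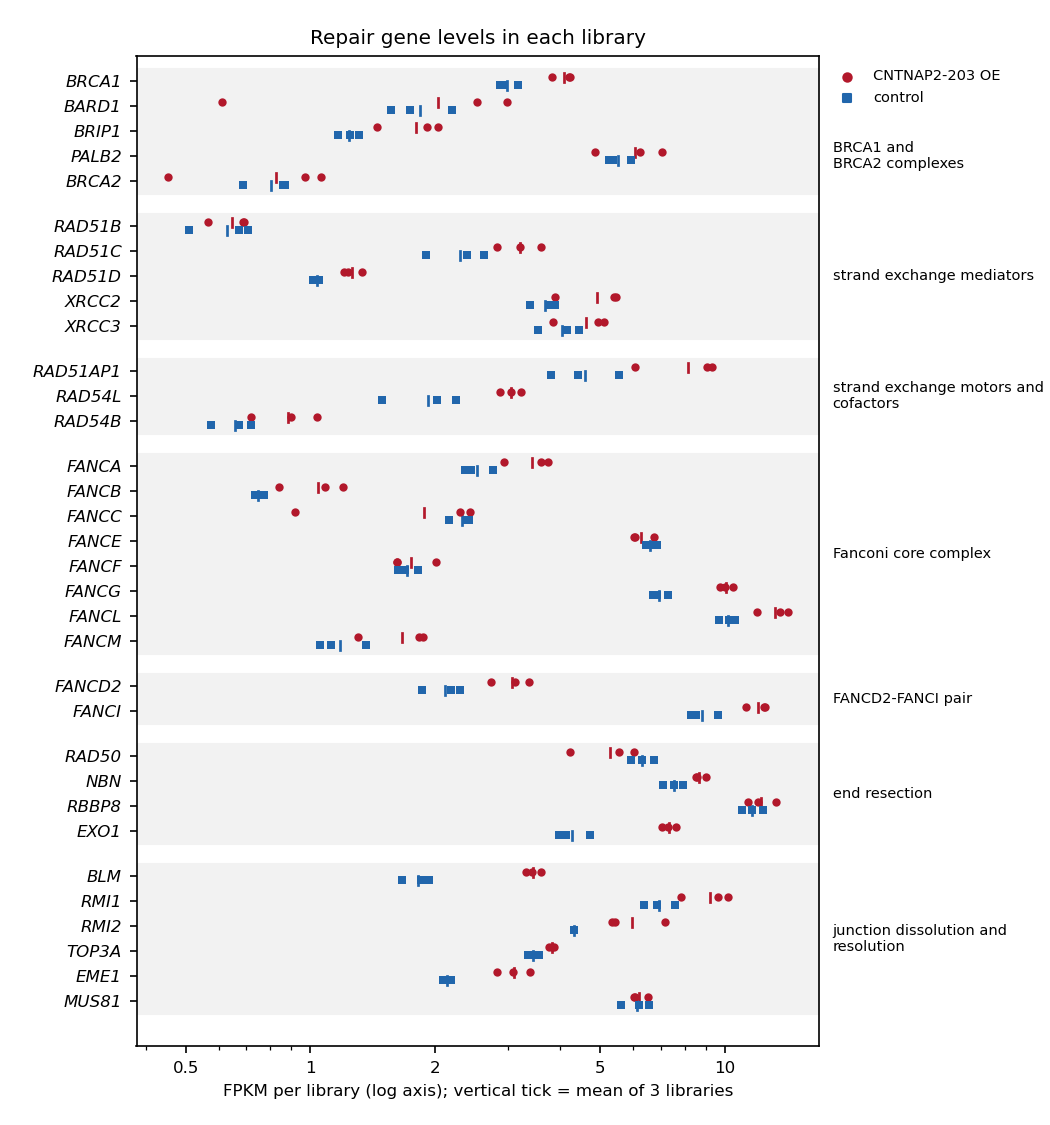
Level of each repair gene in each library, in FPKM (fragments scaled by gene length and library size, recovered from the deposited log2 values) on a log axis, grouped by role, with circles for the 3 CNTNAP2-203 OE libraries, squares for the 3 control libraries and vertical ticks for group means. In FPKM, which carry no TMM scaling, the CNTNAP2-203 OE libraries lay above all controls for 20 of the 33 genes, and single CNTNAP2-203 OE values lie far to the left in BARD1, BRCA2 and FANCC.

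Per length, the genes covered a wide range of levels. RAD51B was lowest, at 0.648 ± 0.0705 FPKM in CNTNAP2-203 OE and 0.630 ± 0.105 FPKM in control (SD, n = 3 each). FANCL, the ubiquitin ligase of the core complex, was highest in CNTNAP2-203 OE at 13.3 ± 1.14 FPKM, against 10.2 ± 0.449 FPKM in control. RBBP8, which encodes CtIP and starts end resection, was highest in control, with 12.2 ± 0.992 FPKM in CNTNAP2-203 OE and 11.7 ± 0.689 FPKM in control. BRCA2, at 0.827 ± 0.328 FPKM in CNTNAP2-203 OE and 0.805 ± 0.101 FPKM in control, was among the lowest, together with RAD51B, RAD54B and FANCB.

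At the other scale used here, CPM (counts per 1000000 after TMM scaling of the libraries), levels are compared between groups for one gene at a time. In CPM, 22 of the 33 genes had all 3 CNTNAP2-203 OE libraries above all 3 controls, none had them all below, and 11 overlapped. Among all tested genes 13.7% lay wholly above and 12.8% wholly below. The log2 fold change was positive in 30 of the 33 genes, against 49.6% of all genes, and negative in FANCC, FANCE and RAD50. The median was 0.45 on the log2 scale (1.37-fold), while that of all tested genes was -0.00. Of all tested genes, 11.0% had a log2 fold change at or above the median of the repair genes. In bulk RNA, more cells in a state that transcribes a gene and more RNA per cell cannot be told apart.

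Over the 33 genes together, the shift was present in each CNTNAP2-203 OE library. Set against the control mean, the median of the 33 genes was 0.49, 0.40 and 0.31 on the log2 CPM scale in CNTNAP2-203 OE replicates 1, 2 and 3. For control replicates 1, 2 and 3 the medians were -0.04, 0.05 and -0.00, which lie near the control mean because that mean is taken from these same libraries. By role, the median of the BRCA1 and BRCA2 complexes was -0.08 in CNTNAP2-203 OE replicate 3, against 0.51 and 0.46 in replicates 1 and 2. For end resection it was 0.07 in CNTNAP2-203 OE replicate 2, against 0.08 in control replicate 2. In the other roles every CNTNAP2-203 OE median lay above every control median.

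**Figure D2:**
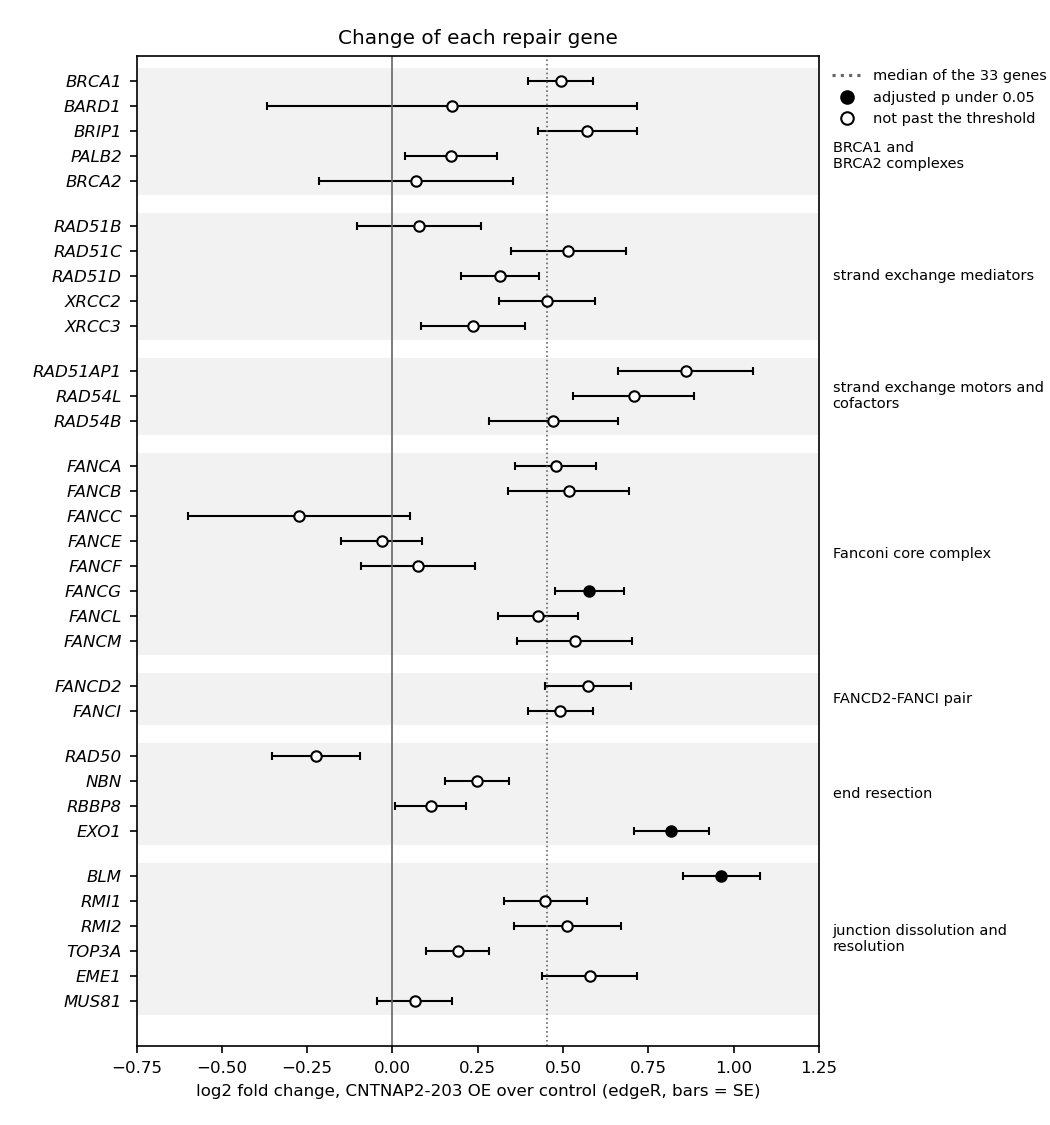
Fitted log2 fold change of CNTNAP2-203 OE over control for each repair gene, with bars for the standard error, filled circles for genes past the threshold and a dotted line at the median of the 33 genes. BLM, EXO1 and FANCG are filled, and the bars of BARD1, FANCC and BRCA2 are the widest.

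End resection held the most uneven set of changes. EXO1, the exonuclease of long-range resection, had 38.7, 36.6 and 37.8 CPM in CNTNAP2-203 OE libraries, against 19.9, 23.5 and 20.8 CPM in control libraries. The groups did not overlap, and the lowest CNTNAP2-203 OE library stood well above the highest control. The mean was 37.7 ± 1.05 CPM in CNTNAP2-203 OE and 21.4 ± 1.85 CPM in control, which is 1.76-fold (log2 fold change 0.82, SE 0.110, edgeR adjusted p = 0.0214). EXO1 lies at chr1:241847967-241895148 on the plus strand (GENCODE 29, GRCh38) and overlaps no other annotated gene. It passed without CNTNAP2-203 OE replicate 3 (adjusted p = 0.0175) and in no other fit that left out 1 library, where the adjusted p reached 0.134.

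RAD50, the ATPase that tethers DNA ends, was the gene of this step that pointed the other way without passing the test. It had 78.2, 71.3 and 57.9 CPM in CNTNAP2-203 OE libraries, against 75.9, 85.7 and 80.7 CPM in control libraries. The groups overlapped, with CNTNAP2-203 OE replicate 1 above control replicate 1 and replicate 3 lowest of all. The log2 fold change was -0.22 (SE 0.128, edgeR adjusted p = 0.412), and -0.12 without CNTNAP2-203 OE replicate 3. Its gene spans chr5:132556019-132646344 on the plus strand. NBN, the partner that brings the complex to signalling kinases, averaged 66.5 ± 2.63 CPM in CNTNAP2-203 OE and 56.0 ± 2.96 CPM in control, with groups that did not overlap but no call (edgeR adjusted p = 0.231). RBBP8 averaged 77.1 ± 6.65 CPM in CNTNAP2-203 OE and 71.3 ± 4.0 CPM in control, with overlapping groups.

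The BRCA1 and BRCA2 complexes, which prepare resected ends for strand exchange, held no called gene, and 2 of their 5 genes were separated by group. BRCA1, the ubiquitin ligase and scaffold, had 48.4, 47.9 and 46.3 CPM in CNTNAP2-203 OE libraries, against 35.8, 32.2 and 33.3 CPM in control libraries. The 3 CNTNAP2-203 OE values were close together and all above the controls. At 47.5 ± 1.08 CPM in CNTNAP2-203 OE and 33.8 ± 1.86 CPM in control (1.41-fold, log2 fold change 0.49, SE 0.0949), the edgeR adjusted p was 0.0548, just outside the threshold. It was 0.0484 under a stricter filter on low counts, 0.0330 without CNTNAP2-203 OE replicate 3 and 0.00277 by DESeq2. BRCA1 (chr17:43044295-43170245, minus strand) overlaps the expressed long non-coding genes NBR2 and AC060780.1, with which reads could be shared.

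BRCA2, the partner of PALB2 at single-stranded DNA, was not separated by group. It had 15.3, 16.5 and 7.52 CPM in CNTNAP2-203 OE libraries, against 10.7, 13.2 and 13.6 CPM in control libraries. CNTNAP2-203 OE replicates 1 and 2 were above every control and replicate 3 was below every control, so the log2 fold change of 0.07 (SE 0.284, edgeR adjusted p = 0.924) averages values that pull apart. Without replicate 3 it was 0.34 with an edgeR adjusted p of 0.274. BRCA2 spans chr13:32315474-32400266 on the plus strand.

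BARD1, the obligate partner of BRCA1, showed the same split more strongly. It had 27.8, 23.2 and 6.0 CPM in CNTNAP2-203 OE libraries, against 14.4, 20.1 and 16.1 CPM in control libraries. Replicate 3 held 0.235 of the mean of the other CNTNAP2-203 OE libraries, and the SE of the log2 fold change (0.17) was 0.541. Without replicate 3 the log2 fold change was 0.59, not past the threshold (edgeR adjusted p = 0.122). BRIP1, a helicase that binds BRCA1, averaged 17.8 ± 2.52 CPM in CNTNAP2-203 OE and 12 ± 0.642 CPM in control with no overlap (log2 fold change 0.57, edgeR adjusted p = 0.107). PALB2, the bridge between BRCA1 and BRCA2, averaged 35.7 ± 5.46 CPM in CNTNAP2-203 OE and 31.7 ± 1.93 CPM in control, with overlapping groups.

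Among the genes RAD51B, RAD51C, RAD51D, XRCC2 and XRCC3, whose products assist strand exchange, none of 5 was called, and 3 were separated by group. RAD51C averaged 24.4 ± 3.77 CPM in CNTNAP2-203 OE and 17.0 ± 2.71 CPM in control (log2 fold change 0.52, edgeR adjusted p = 0.180). XRCC2, at 29.5 ± 4.43 CPM in CNTNAP2-203 OE and 21.6 ± 1.54 CPM in control, and RAD51D, at 17.8 ± 0.857 CPM in CNTNAP2-203 OE and 14.3 ± 0.228 CPM in control, were likewise separated. XRCC3 (43.5 ± 7.26 CPM in CNTNAP2-203 OE and 36.9 ± 4.21 CPM in control) and RAD51B (6.18 ± 0.805 CPM in CNTNAP2-203 OE and 5.85 ± 0.916 CPM in control) overlapped. These 5 gave a median log2 fold change of 0.32, below that of the 33 genes together.

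The 3 genes of motors and cofactors of strand exchange had larger differences, with a median log2 fold change of 0.71 and no overlap in any of them, but none passed. RAD51AP1, a cofactor that promotes pairing with the template, had 29.4, 28.1 and 20.1 CPM in CNTNAP2-203 OE libraries, against 13.7, 11.8 and 17.3 CPM in control libraries. Replicate 3 came nearest to the controls. The log2 fold change was 0.86 (SE 0.197, edgeR adjusted p = 0.0860), the second largest of the 33, and 1.01 without replicate 3 (edgeR adjusted p = 0.0311). RAD54L, a motor protein that acts during strand exchange, averaged 15.5 ± 1.36 CPM in CNTNAP2-203 OE and 9.48 ± 1.94 CPM in control (edgeR adjusted p = 0.105). Its relative RAD54B averaged 5.92 ± 1.05 CPM in CNTNAP2-203 OE and 4.27 ± 0.436 CPM in control. RAD54L overlaps LRRC41 and RAD54B overlaps FSBP, which had means of 2259 and 466 counts per library, and reads could be shared with them.

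In the Fanconi core complex 1 of 8 genes rose, 5 were separated by group and 6 had a positive log2 fold change. FANCG had 43.1, 43.9 and 48.8 CPM in CNTNAP2-203 OE libraries, against 31.9, 29.8 and 29.3 CPM in control libraries. Replicate 3 was the highest library here, and no control came near the CNTNAP2-203 OE values. The mean was 45.3 ± 3.11 CPM in CNTNAP2-203 OE and 30.3 ± 1.35 CPM in control, which is 1.49-fold (log2 fold change 0.58, SE 0.102, edgeR adjusted p = 0.0451). FANCG (chr9:35073835-35080016, minus strand) overlaps no other annotated gene. Of the 6 fits with 1 library removed, only that without CNTNAP2-203 OE replicate 3 kept the call (edgeR adjusted p = 0.0312), and the others reached an adjusted p of 0.225.

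Separated but not called were FANCA, which forms a subcomplex with FANCG (41.4 ± 3.95 CPM in CNTNAP2-203 OE and 29.7 ± 2.55 CPM in control), FANCL (39.7 ± 4.62 CPM in CNTNAP2-203 OE and 29.6 ± 1.15 CPM in control), and FANCB, the partner of FANCL (4.70 ± 0.713 CPM in CNTNAP2-203 OE and 3.29 ± 0.0493 CPM in control). FANCM, the translocase that anchors the complex to DNA, averaged 17.5 ± 2.80 CPM in CNTNAP2-203 OE and 12.1 ± 1.60 CPM in control. The FANCC, FANCE and FANCF group, the third subcomplex of the core, did not separate. FANCE averaged 21.0 ± 2.07 CPM in CNTNAP2-203 OE and 21.5 ± 0.699 CPM in control, and FANCF 6.46 ± 1.06 CPM in CNTNAP2-203 OE and 6.13 ± 0.340 CPM in control. FANCC had 38.2, 35.9 and 15.3 CPM in CNTNAP2-203 OE libraries, against 33.6, 37.4 and 37.2 CPM in control libraries. Its replicate 3 held 0.413 of the mean of the other CNTNAP2-203 OE libraries, and the log2 fold change of -0.27 (SE 0.325, edgeR adjusted p = 0.707) became 0.03 without it.

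FANCD2 and FANCI, the pair that the core complex modifies, both lay just outside the threshold. FANCD2 had 34.4, 31.6 and 29.5 CPM in CNTNAP2-203 OE libraries, against 18.9, 23.0 and 22.3 CPM in control libraries. Its groups were well apart, at 31.8 ± 2.48 CPM in CNTNAP2-203 OE and 21.4 ± 2.21 CPM in control (1.49-fold, log2 fold change 0.57, SE 0.125, edgeR adjusted p = 0.0766). FANCD2 lies at chr3:10026414-10101930 on the plus strand. FANCI, at 116 ± 2.66 CPM in CNTNAP2-203 OE and 82.5 ± 6.34 CPM in control, had the most counts of the 33 genes (log2 fold change 0.49, SE 0.0954, edgeR adjusted p = 0.0555). Both passed without CNTNAP2-203 OE replicate 3, with edgeR adjusted p of 0.0448 for FANCD2 and 0.0341 for FANCI.

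The genes that act last, on joined molecules, included the largest difference of all. BLM, the helicase mutated in Bloom syndrome, had 29.4, 27.7 and 28.5 CPM in CNTNAP2-203 OE libraries, against 14.9, 15.5 and 13.5 CPM in control libraries. The CNTNAP2-203 OE libraries were tightly grouped and far above all controls. The mean was 28.5 ± 0.805 CPM in CNTNAP2-203 OE and 14.6 ± 1.04 CPM in control, which is 1.95-fold (log2 fold change 0.96, SE 0.114, edgeR adjusted p = 0.0160). BLM spans chr15:90717327-90816165 on the plus strand. It passed without CNTNAP2-203 OE replicate 2 (edgeR adjusted p = 0.0445) or replicate 3 (0.0112), and its adjusted p reached 0.1005 in the other fits that left out 1 library.

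The partners of BLM had smaller log2 fold changes. TOP3A, the topoisomerase that unlinks the strands, averaged 39.3 ± 0.979 CPM in CNTNAP2-203 OE and 34.4 ± 0.919 CPM in control (log2 fold change 0.19, edgeR adjusted p = 0.344). RMI1 averaged 40.2 ± 4.28 CPM in CNTNAP2-203 OE and 29.5 ± 2.40 CPM in control, and RMI2 27.0 ± 5.68 CPM in CNTNAP2-203 OE and 19.0 ± 0.128 CPM in control; both encode subunits that stabilise the complex. All 3 were separated by group and none was called. Of the nuclease that cuts joined molecules, EME1, the regulatory subunit, averaged 12.8 ± 1.58 CPM in CNTNAP2-203 OE and 8.60 ± 0.146 CPM in control (log2 fold change 0.58, SE 0.139, edgeR adjusted p = 0.0965). MUS81, the catalytic subunit, averaged 42.3 ± 3.33 CPM in CNTNAP2-203 OE and 40.4 ± 3.23 CPM in control, with overlapping groups.

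Genes whose products bind each other were compared in 7 pairs, as ratios of FPKM within a library. The pairs were chosen with the values known, and an exact permutation test of 3 against 3 libraries cannot go below a two-sided p of 0.1. BLM over TOP3A was 0.928, 0.897 and 0.881 in CNTNAP2-203 OE libraries, against 0.551, 0.542 and 0.487 in control libraries, a difference of 0.78 on the log2 scale. EME1 over MUS81 was 0.508, 0.467 and 0.518 in CNTNAP2-203 OE libraries, against 0.326, 0.388 and 0.336 in control libraries. In both, every CNTNAP2-203 OE ratio exceeded every control ratio, and the exact permutation p was 0.1, adjusted to 0.175 over the 7 pairs. EME1 overlaps LRRC59 and MUS81 overlaps CFL1, which had means of 8864 and 36138 counts per library. Reads could be shared with these neighbours, and their part in the ratio was not tested.

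NBN over RAD50 was 1.49, 1.53 and 2.02 in CNTNAP2-203 OE libraries, against 1.20, 1.18 and 1.19 in control libraries. RMI2 over TOP3A averaged 1.57 ± 0.297 in CNTNAP2-203 OE and 1.26 ± 0.0405 in control. Both were separated by group with the same exact p, and the high ratio in each came from CNTNAP2-203 OE replicate 3. FANCD2 over FANCI was 0.254 ± 0.0150 in CNTNAP2-203 OE and 0.240 ± 0.0169 in control (exact permutation p = 0.4), and RMI1 over TOP3A 2.41 ± 0.292 in CNTNAP2-203 OE and 2.01 ± 0.110 in control (exact permutation p = 0.2). BARD1 over BRCA1 was 0.708, 0.594 and 0.159 in CNTNAP2-203 OE libraries, against 0.495, 0.766 and 0.594 in control libraries (exact permutation p = 0.7). With replicate 3 set aside, the CNTNAP2-203 OE ratios lay within the control range.

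**Figure D3:**
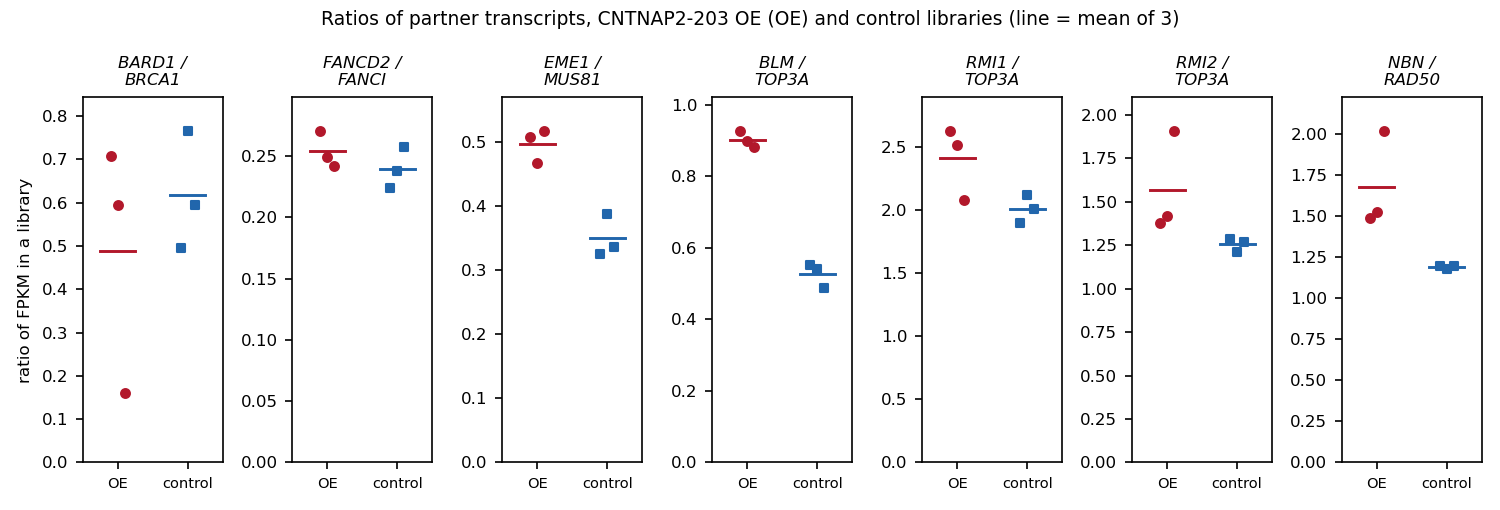
Ratio of FPKM between partner transcripts in each library for 7 pairs, with circles for CNTNAP2-203 OE, squares for control, and a line at the mean of 3 libraries; each panel has its own axis from 0. BLM over TOP3A is 0.881 to 0.928 in CNTNAP2-203 OE and 0.487 to 0.551 in control, while BARD1 over BRCA1 overlaps, with 1 CNTNAP2-203 OE library at 0.159.

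CNTNAP2-203 OE replicate 3 stood apart in several of these genes. Against the mean of the other CNTNAP2-203 OE libraries, BARD1, FANCC and BRCA2 were at least 2-fold lower in it, 3 of the 33, while 2.58% of all genes were. It was below both other libraries of its group in 15 of the 33 genes and above both in 13, against 39.2% and 41.1% of all genes. The difference followed transcript length across all genes. Genes were split into 5 groups of near equal size by their longest annotated transcript. The median of replicate 3 minus the other CNTNAP2-203 OE libraries was 0.17 on the log2 CPM scale in the shortest group, of up to 1457 bases, and -0.25 in the longest, of 5321 bases or more. Among the repair genes it was 0.25 over the 4 genes of 1458 to 2449 bases and -0.35 over the 8 in the longest group. Of the 9 squamous markers, TP63, CDH1 and DSG3 had their lowest raw counts of the 6 libraries in it (2482, 5780 and 4114), and EPCAM and SFN their highest (8430 and 43910). The other 4 lay within the range of the other libraries. Their part in the results was not tested.

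The repair genes did not all follow the length of their longest annotated transcript, which need not be the one expressed. BRCA1, with a longest transcript of 7270 bases, and RAD51D, with 9988 bases, were at about the level of the other CNTNAP2-203 OE libraries, while FANCC, with 4592 bases, was far below. Without replicate 3, 11 of the 33 genes were called higher and 0 lower, against 1.59% of all genes higher and 1.21% lower in that fit. These were BLM, BRCA1, BRIP1, EXO1, FANCA, FANCD2, FANCG, FANCI, RAD51AP1, RMI1 and XRCC2. With a smooth length trend removed from every library, a fit chosen after seeing the data, 9 were called higher and 0 lower, against 1.94% and 1.27% of all genes. The median log2 fold change was 0.43 in the first of these fits and 0.45 in the second. Without CNTNAP2-203 OE replicate 1, 0 of the 33 genes were called, against 0.0828% of all genes called higher. The same count held without control replicate 1, 2 or 3, where 0.0617%, 0.0411% and 0.0621% of all genes were called higher. Without CNTNAP2-203 OE replicate 2, BLM alone was called, against 0.222% of all genes.

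**Figure D4:**
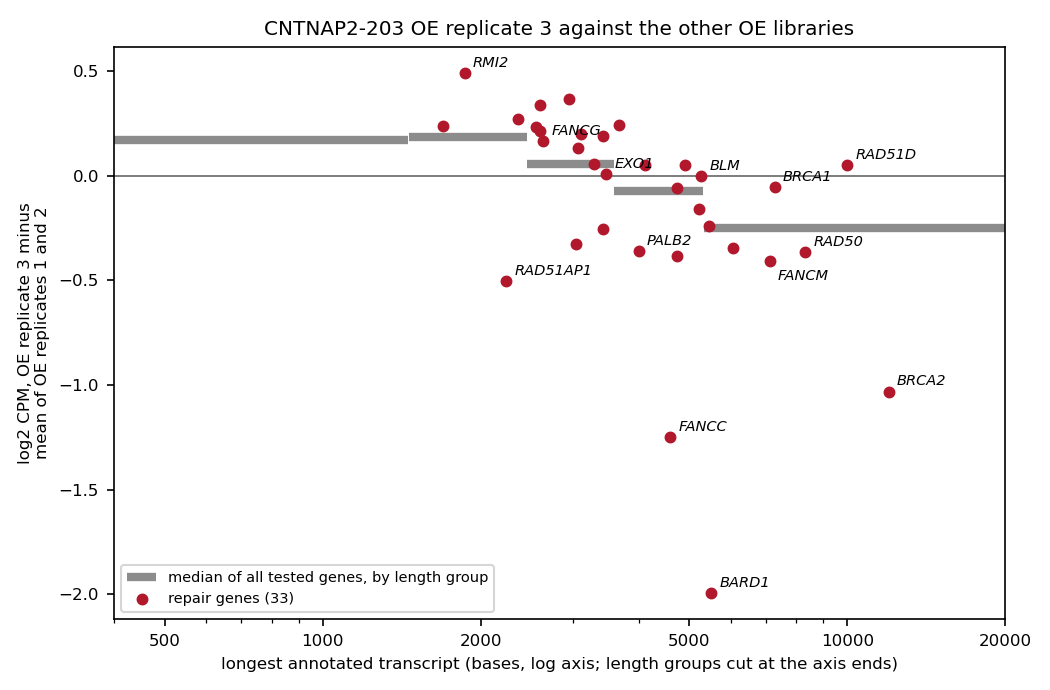
Log2 CPM of CNTNAP2-203 OE replicate 3 minus the mean of CNTNAP2-203 OE replicates 1 and 2 for each repair gene (circles), plotted against its longest annotated transcript on a log axis, with grey bars at the median of all tested genes in each of 5 length groups. The bars fall to -0.25 in the longest group, and BARD1, FANCC and BRCA2 lie far below them.

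The 33 genes are spread over 17 chromosomes, with 6 of them on chromosome 17 (BRCA1, BRIP1, RAD51C, RAD51D, TOP3A and EME1). Their log2 fold changes ranged from 0.19 to 0.58, while the median of the 1160 tested genes on that chromosome was -0.02. The library kit does not mark the strand of RNA, and 11 of the 33 genes overlap another gene with a mean of at least 100 counts per library. Examples are EME1 with LRRC59, MUS81 with CFL1, XRCC3 with KLC1 and FANCA with ZNF276, where reads could be shared between the neighbours. Of the genes that rose, EXO1 and FANCG overlap none, and BLM overlaps only an entry for a small nucleolar RNA with next to no counts.

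Other genes of the same pathways had smaller median differences. Of 36 further homologous recombination genes, all tested, 0 were called by edgeR, against 0.798% of all genes called higher. The log2 fold change was positive in 26, against 49.6% of all genes, and the median was 0.22. At an unadjusted edgeR p under 0.05, 15 were higher and 0 lower, against 9.41% and 7.84% of all genes. The 3 with the smallest p were PSMC3IP, a cofactor of strand exchange, at 17.8 ± 1.17 CPM in CNTNAP2-203 OE and 11.4 ± 0.708 CPM in control (edgeR adjusted p = 0.0563), DNA2, a resection nuclease (log2 fold change 0.69, 0.0756), and MCM8, a helicase subunit (0.49, 0.0876). DNA2 and MCM8 were called higher without CNTNAP2-203 OE replicate 3, where 1.59% of all genes were. DESeq2 called 7 of the 36 higher, against 4.26% of all genes.

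Of 23 further crosslink repair genes, 22 were tested. The log2 fold change was positive in 17, against 49.6% of all genes, and the median over all 22 was 0.08. Among the 22, 1 rose, against 0.798% of all genes called higher. This was UBE2T, the conjugating enzyme that works with FANCL on FANCD2, at 47.1 ± 3.19 CPM in CNTNAP2-203 OE and 26.5 ± 1.68 CPM in control (log2 fold change 0.83, edgeR adjusted p = 0.0199). CENPX (log2 fold change 0.82) and FAAP24 (0.73), which bind FANCM, followed without passing. Of 23 end-joining genes, which act on breaks without a template, 1 rose: PARP1, a sensor of DNA breaks, at 303 ± 9.77 CPM in CNTNAP2-203 OE and 219 ± 4.97 CPM in control (log2 fold change 0.47, edgeR adjusted p = 0.0494). XRCC6 (log2 fold change 0.40) and XRCC5 (0.36), the subunits of Ku, did not pass, and the median of the end-joining genes was 0.07. Their log2 fold change was positive in 17 of 23, against 49.6% of all genes. Of the 23, 5 were higher and 1 lower at an unadjusted edgeR p under 0.05, against 9.41% and 7.84% of all genes. The call of PARP1 was lost with RLE scaling, with scaling by totals, with no filter on low counts and with limma-trend. DESeq2 called 3 of the crosslink repair genes and 3 of the end-joining genes higher, against 4.26% of all genes. With 1 library removed, UBE2T and PARP1 passed in 1 fit each, that without CNTNAP2-203 OE replicate 3, and their edgeR adjusted p reached 0.123 and 0.254. E2F1, the factor named in the title, rose to 47.0 ± 3.80 CPM in CNTNAP2-203 OE, against 24.9 ± 1.82 CPM in control (log2 fold change 0.92, edgeR adjusted p = 0.0174). It passed without CNTNAP2-203 OE replicate 2 or 3, and its edgeR adjusted p reached 0.113 without another library.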

How the data were processed

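The 3 CNTNAP2-203 OE and 3 control libraries of CAL27 cells were made from rRNA-depleted RNA with a kit that does not mark strand, per the labels' protocols. Trim Galore 0.4.4 and the build hg38 are named in the submitters' processing notes. No aligner, counter, annotation or strand setting is given in the sources used here. Per the labels and files, the authors deposited raw counts per gene, whole numbers that are not normalized, and a table of log2 values. From their relation to the counts, the deposited log2 values are log2(FPKM + 1): with that offset the implied gene length varied between libraries by a median of 0.225%, and by 2.23% with none. FPKM were recovered from them. No row named anything but a gene. For control replicate 1 the labels say that the reverse reads were missing when the reads were submitted. The sources used here do not say whether its counts rest on both reads.

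Groups come from the sample titles. Counts were tested with edgeR 4.0.16 in R 4.3.3 (filterByExpr with a minimum count of 10, TMM scaling, robust quasi-likelihood test, group as the only term), with Benjamini-Hochberg adjustment over 18786 genes. The SE was taken as the size of the log2 fold change over the square root of F. CPM are TMM-scaled, ± is the SD of 3 libraries, and log2 CPM of single libraries carry an offset of 0.5. No 2 libraries of a group agreed within counting noise. Total counts were 36843190 to 42412703 per library, and the common biological coefficient of variation over the tested genes was 0.226. That value is not the spread of each repair gene. In some, 3 libraries lay closer together than counting error alone would place them, as in FANCB with 129, 132 and 138 counts in control. A very small SD is thus no measure of precision. Alternatives were DESeq2 1.42.0, limma 3.58.1 (limma-trend on log2 FPKM), other scalings and filters, a replicate block, leaving out each library, and a lowess length correction (span 0.3) over the 18522 genes with an annotated length. Gene coordinates and lengths are from GENCODE 29 (GRCh38), and promoters are RefSeq sequences of GRCh38.p14. The edgeR, DESeq2 and length-corrected fits, and limma-trend on log2 CPM, were tested on simulated counts. The ratios, the promoter search and the fits with a replicate block or a library left out were not.

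The genes, the lists, the 7 pairs and the motifs were chosen with earlier results of these data known. Values in every library were to be given for genes past the threshold and for BRCA1, BRCA2, FANCD2 and RAD50, and in the other lists the 3 genes with the smallest p were named. 1 item is not reported here. Per-library values of BARD1, FANCC and RAD51AP1 were added after the values were seen.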

Additional observations from a re-analysis of the deposited data

How the results depend on the processing

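The direction of the 33 genes together did not depend on the settings tried: the median log2 fold change was 0.41 to 0.45 in each fit on counts and 0.287 with limma-trend on log2(FPKM + 1), a scale that understates changes of low genes. The number of genes past the threshold did depend on them. RLE scaling, scaling by total counts and no filter on low counts kept BLM, EXO1 and FANCG, the stricter filter (50 counts in at least 3 libraries) added BRCA1, and limma-trend called BLM and EXO1. DESeq2 called 13 of the 33 higher and 1063 genes in all, limma-trend 165 genes in all, and the length correction, chosen after seeing the data, 9 of the 33 and 594 in all. Leaving out 1 library gave 0 to 11 of the 33, and 14 to 545 genes in all. The groups share replicate numbers, but same-numbered libraries did not deviate together (correlations -0.082, 0.045 and -0.028), and CNTNAP2-203 OE replicates 1 and 3 each correlated best with a control of another number. With the replicate block, 0 of the 33 and 17 genes in all were called. None of the 33 was called lower in any of the 14 alternatives.

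Of 462 pairs of a repair gene and an alternative, 407 kept direction and side of the threshold, 25 gained a call, 18 lost one and 12 changed sign. The sign changes were all in genes with overlapping groups, and for these the range over fits that left out 1 library was -0.20 to 0.59 for BARD1 (-0.0600 with the replicate block), -0.13 to 0.34 for BRCA2, -0.0444 to 0.18 for RAD51B, -0.49 to 0.0349 for FANCC, -0.12 to 0.0116 for FANCE, -0.0720 to 0.15 for FANCF and -0.0053 to 0.12 for MUS81. The cause was not tested beyond the values given for CNTNAP2-203 OE replicate 3. Each repair gene had at least 129 counts in every library.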
